A study of Drosophila melanogaster with 6 samples.

Results

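Excitatory glutamate receptors were followed in heads and in tagged photoreceptor nuclei of the fruit fly as 9 genes, taken by their FlyBase symbols from the 17558 genes of the count table. They are the AMPA-type genes *GluRIA* and *GluRIB*, the kainate-type genes *KaiR1D*, *clumsy*, *Grik* and *Ekar*, the NMDA-type genes *Nmdar1* and *Nmdar2*, and the metabotropic receptor gene *mGluR*. All 9 were in the table, and all 9 were among the 10378 genes with enough counts to be tested. The comparison has 3 pre-isolation samples, which are total RNA of head homogenate, and 3 post-isolation samples, which are RNA of GFP-tagged nuclei pulled from such homogenate by GFP antibody on beads and washed at 300 mM NaCl. All 6 samples came from pools of male flies aged 10 days that carry *rh1-GAL4* and *UAS-GFP-Msp300KASH*, in a *w* background with *ry[506]*, so pre- and post-isolation samples share one genotype and age. The driver marks the outer photoreceptors R1 to R6 with GFP on the nuclear membrane, and the study also found it active in the antenna, which limits how far the tagged nuclei stand for photoreceptors alone. Because homogenate holds cytoplasm and nuclei of every head cell while the beads hold nuclei only, the cell type and the cell compartment changed together between the groups and cannot be told apart.

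Glutamate acts on ionotropic receptors, which are cation channels built of several subunits, and on metabotropic receptors, which signal through G proteins. In the fly brain and optic lobe these receptors sit mostly on neurons that receive glutamate, whereas photoreceptors themselves send histamine to their targets. An exception known from earlier work is *Ekar*, named for an eye-enriched kainate receptor, which acts in photoreceptors themselves in a feedback loop from lamina amacrine neurons.

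After isolation of the nuclei 1 receptor gene was higher and the other 8 were lower, 7 of them by the test against no change. *Ekar* was 5.65-fold higher after isolation and was the only one of the 9 to pass the test for a change of more than 2-fold in either direction. The other 8 genes had log2 fold changes between -1.14 and -0.57, which correspond to levels between 45.4% and 67.4% of those in the head homogenate. For 7 of these 8 the difference from no change passed the test, the exception being *clumsy*, which had the fewest counts. Of all tested genes, 24.4% were called higher and 26.1% lower by the test against no change. The 2-fold test called 12.2% of them in either direction. The question put to each gene was whether its normalized read count differed between post- and pre-isolation samples by more than 2-fold, as in the methods of the study, and then whether it differed at all. Values are normalized read counts in CPM, a gene's counts against the total of its library after edgeR's TMM scaling. Fold changes set the post-isolation level over the pre-isolation one. FDR is the Benjamini-Hochberg adjusted p of edgeR's quasi-likelihood fit over all tested genes, called below 0.05.

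**Figure D1:**
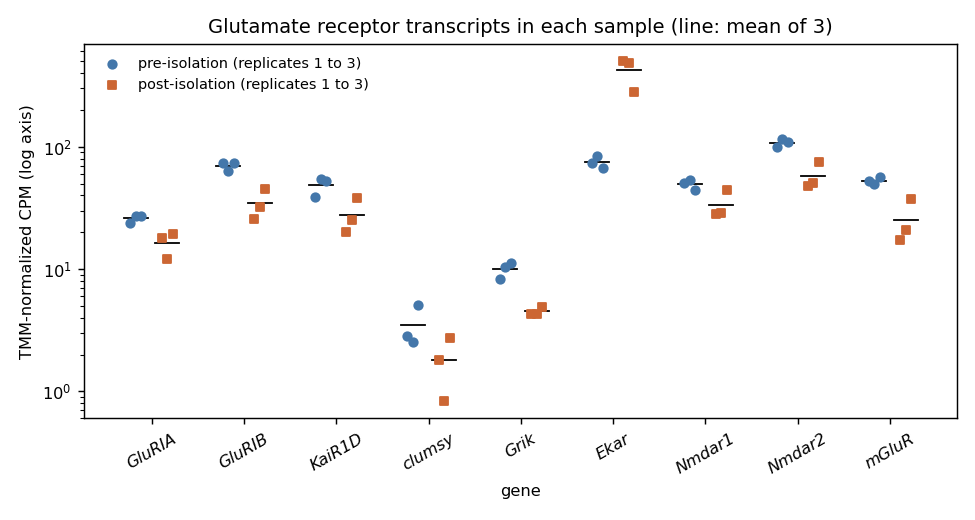
TMM-normalized CPM of the 9 receptor genes on a log axis, with 1 point for each of the 3 pre-isolation (circles) and 3 post-isolation samples (squares) and a line at the mean. The post-isolation samples lie above the pre-isolation samples for *Ekar* alone and below them for 7 genes, and the groups overlap for *clumsy*.

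*Ekar* (FBgn0039916) lies on chromosome 4 from 636131 to 646556 on the minus strand and has 12 exons after its transcripts are merged. Its CPM before isolation was 73.9, 83.6 and 67.2 in replicates 1 to 3. After isolation it was 502, 487 and 281 in the same order. The groups were far apart, and the third replicate was the lowest of those taken after isolation. The mean rose from 74.9 ± 8.26 to 423 ± 123 (SD, n = 3). On the log2 scale the fold change was 2.50, with a 95% interval of 2.08 to 2.91 and an SE of 0.19 (FDR = 5.58e-06 against a 2-fold change, edgeR's glmTreat). By rank this was the 305th highest of 10378 log2 fold changes. In the table as a whole, 7.29% of genes were called higher and 4.89% lower by the same test, and 12.2% in either direction, so 1 gene of 9 is close to the share among all genes. The log2 change within the numbered pairs was 2.76, 2.54 and 2.06. Over 14 alternative fits the log2 fold change ran from 2.03 with library size alone to 2.77 without post-isolation replicate 3, and the call held in each. Several transposon fragments lie in introns of *Ekar* on its strand, but no exon of another gene overlaps its exons.

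The other kainate-type genes did not share this rise. *KaiR1D* (FBgn0038837), whose receptor acts on the presynaptic side at the larval neuromuscular junction, lies on 3R from 20860187 to 20866231. Its CPM was 38.5, 54.0 and 52.8 before isolation and 20.1, 25.4 and 38.0 after. The groups did not overlap, although the highest post-isolation sample, replicate 3, came close to the lowest pre-isolation sample. Its log2 fold change was -0.80 (SE 0.22), with FDR = 0.00597 against no change in edgeR's quasi-likelihood test and 1.00 against a 2-fold change. *Grik* (FBgn0038840) lies on 3R from 20901956 to 20908263, with 35724 bases between it and *KaiR1D*, and encodes a further kainate-type subunit. Its CPM was 8.35, 10.5 and 11.1 before isolation and 4.30, 4.32 and 4.93 after. These were the most even values within the post-isolation group, and they were lower in each pair. The log2 fold change of *Grik* was -1.14 (SE 0.30, 95% interval -1.79 to -0.49), the lowest of the 9 genes (FDR = 0.00577 against no change and 0.559 against a 2-fold change, edgeR).

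*clumsy* (FBgn0026255), on 2L from 21206493 to 21211818, encodes a kainate-type subunit used in the optic lobe pathway for ultraviolet preference. It had only 37, 32 and 59 counts in the pre-isolation samples and 21, 9 and 30 in the post-isolation samples. In CPM these are 2.83, 2.54 and 5.04 before and 1.81, 0.827 and 2.74 after, so the groups overlap. The fitted log2 fold change was -0.93 (SE 0.53) with a 95% interval from -2.06 to 0.20, and it did not pass the test against no change (FDR = 0.159, edgeR). That interval holds both no change and the log2 fold change of *Grik*, so the values of *clumsy* do not decide between them. *clumsy* and *Grik* are also the 2 members outside the filtered table that the authors deposited.

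The AMPA-type genes encode subunits of fast glutamate-gated channels of the central nervous system. *GluRIB* (FBgn0264000) spans 3L 9251978 to 9288522. Before isolation its CPM was 73.5, 63.1 and 73.2. After isolation it had 25.4, 32.2 and 45.4, all below the lowest pre-isolation value. Its log2 fold change was -1.03 (SE 0.18), which is 49.1% of the pre-isolation level (FDR = 0.000299 against no change and 0.733 against a 2-fold change, edgeR). *GluRIA* (FBgn0004619) spans 3L 6624032 to 6635059. Before isolation its CPM was 23.6, 27.2 and 27.0. After isolation it had 18.1, 12.0 and 19.3, again without overlap of the groups. The log2 fold change was -0.65 (SE 0.21), with FDR = 0.016 against no change and 1.00 against a 2-fold change (edgeR). This call was near the threshold and was lost without pre-isolation replicate 2, pre-isolation replicate 3 or post-isolation replicate 2. FDR against no change was then 0.056, 0.0528 and 0.0852 in that order (edgeR), at log2 fold changes of -0.62, -0.63 and -0.46.

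NMDA receptors need both glutamate and membrane depolarization to open and have been tied to olfactory memory in the fly, where the products of *Nmdar1* and *Nmdar2* assemble into one channel. *Nmdar2* (FBgn0053513), on X from 1483625 to 1507809, had the highest CPM of the 9 genes before isolation, at 99.0, 116 and 109. In the post-isolation samples it was 47.5, 50.3 and 74.5, all below the pre-isolation range. Its log2 fold change was -0.91 (SE 0.16, 95% interval -1.27 to -0.56), with FDR = 0.0003 against no change and 1.00 against a 2-fold change (edgeR). *Nmdar1* (FBgn0010399), on 3R from 5508842 to 5523328, had 50.6, 53.9 and 44.5 CPM before isolation. After isolation it had 28.0, 28.7 and 43.9, so the third replicates of the groups were nearly equal, with a log2 change of -0.02 in that pair. The log2 fold change of *Nmdar1* was -0.57 (SE 0.18), the smallest of the 9 (FDR = 0.0172 against no change and 1.00 against a 2-fold change, edgeR). It lost the call without pre-isolation replicate 1 (log2 fold change -0.56, FDR = 0.0538), pre-isolation replicate 2 (-0.51, FDR = 0.0709), post-isolation replicate 1 (-0.44, FDR = 0.087) or post-isolation replicate 2 (-0.46, FDR = 0.0819).

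The ratio of the NMDA subunits within a sample needs no normalization. The log2 ratio of *Nmdar2* to *Nmdar1* counts was 0.97, 1.11 and 1.30 in the pre-isolation samples and 0.76, 0.81 and 0.76 in the post-isolation samples. All pre-isolation ratios were above all post-isolation ratios, with means of 1.12 ± 0.17 and 0.78 ± 0.03 (SD, n = 3). The mean difference was -0.35, at p = 0.1 in a two-sided exact permutation test, the smallest p that 3 samples against 3 allow, so the design could not pass 0.05. The log2 ratio of *GluRIA* to *GluRIB* was -1.64, -1.21 and -1.44 before and -0.50, -1.42 and -1.24 after isolation, with overlapping groups (exact permutation test, p = 0.4).

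*mGluR* (FBgn0019985), on chromosome 4 from 936819 to 949441, encodes the metabotropic glutamate receptor, a G protein-coupled receptor that dampens transmitter release at presynaptic sites. Its CPM was 52.7, 49.5 and 56.3 before isolation. After isolation it was 17.4, 20.7 and 37.0, and post-isolation replicate 3 was nearest to the homogenate. The log2 fold change was -1.08 (SE 0.22, 95% interval -1.56 to -0.61), with FDR = 0.000885 against no change and 0.607 against a 2-fold change (edgeR). Without post-isolation replicate 3 it was -1.42 and passed the 2-fold test (FDR = 0.0201). The gene shares chromosome 4 with *Ekar*, which moved the other way. A transposon fragment on its strand covers 57 of its 6351 exon bases, or 0.9%.

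**Figure D2:**
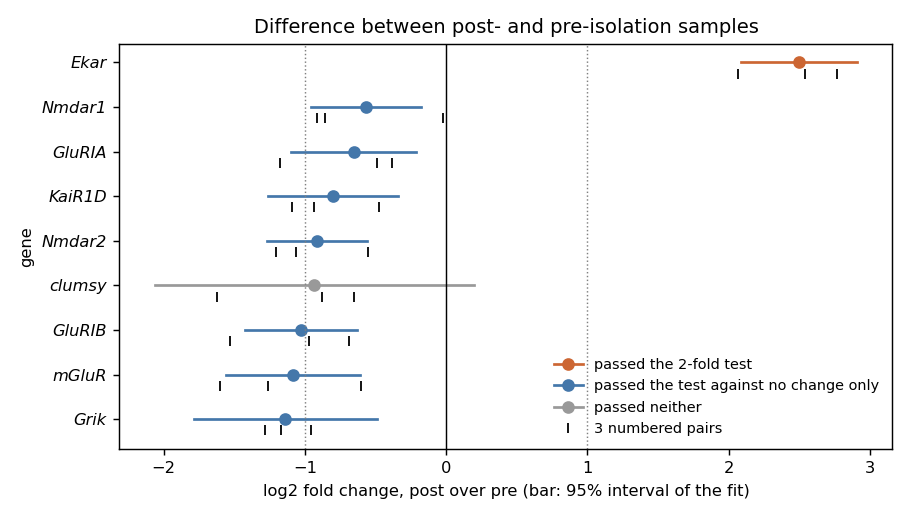
Log2 fold change of each receptor gene, post over pre, with the 95% interval of edgeR's fit (bars), the 3 numbered pairs (ticks), and dotted lines at 2-fold. *Ekar* at 2.50 lies past the 2-fold line, while the other 8 genes lie between -1.14 and -0.57 with intervals that reach or cross the line at -1, apart from *Nmdar1*.

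Counted over the family, 1 of 9 genes was higher and 7 of 9 lower by the test against no change, by which 24.4% of all tested genes were called higher, 26.1% lower and 50.5% in either direction. All 8 genes other than *Ekar* were lower in each of the 3 numbered pairs, although *Nmdar1* was nearly equal in the third, at a log2 change of -0.02. The share of all tested genes lower in each pair was not computed, so this count has no background to be set against. In 7 of the 9 the groups did not overlap with the post-isolation samples lower, against 30.1% of all tested genes. In 1 of the 9 they did not overlap with the post-isolation samples higher, against 28.0%. The median log2 fold change was -0.91 over the 9 genes and -0.07 over all tested genes. None of the 8 was past a 2-fold decrease in edgeR's glmTreat, none had an unadjusted p below 0.05 in it, and DESeq2 gave the same count of 0. With library size alone as the scaling, the median of all genes moved to -0.51, and of the 10378 genes 4326 were lower and 1394 higher by the test against no change, in place of 2707 and 2535. Under that scaling *clumsy* passed the test against no change (log2 fold change -1.38, FDR = 0.0428). *GluRIB* then passed the 2-fold test as well (log2 fold change -1.46, FDR = 0.0494). Relative to that median, log2 fold changes of the members were 2.54 for *Ekar* and between -1.08 and -0.49 for the others, with the same signs as under TMM. In bulk RNA of this kind, fewer cells of a type and less RNA per cell cannot be told apart.

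Levels of different genes were compared per kilobase of merged exons. Before isolation *Ekar* had the highest level per kilobase, 25.2 ± 2.78 CPM per kb (SD, n = 3), which was 1.87 times that of the next gene. *Nmdar2*, *KaiR1D* and *Nmdar1* followed at 13.5, 13.4 and 11.9 CPM per kb, and neighbours among these 3 did not differ beyond their ranges. *GluRIB* at 9.73 and *mGluR* at 8.32 also overlapped. *GluRIA* at 6.81, *Grik* at 2.74 and *clumsy* at 1.01 CPM per kb were each below the gene before them in every sample. After isolation *Ekar* stood at 142 ± 41.6 CPM per kb, 17.7 times the next gene. *Nmdar1*, *KaiR1D*, *Nmdar2*, *GluRIB*, *GluRIA* and *mGluR* then lay between 8.04 and 3.94 CPM per kb, and each overlapped its neighbour. *Grik* at 1.24 and *clumsy* at 0.523 CPM per kb remained the lowest. Per kilobase of coding sequence in place of exons, *Nmdar2* was above *Ekar* before isolation, at 32.7 against 27.7 CPM per kb, so the first place in the homogenate depended on the length used, while *Ekar* was first after isolation with either.

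The makeup of the family changed accordingly. Of all counts on the 9 genes, *Ekar* took 17.5%, 18.2% and 15.1% in the pre-isolation samples and 75.5%, 73.6% and 51.4% in the post-isolation samples. These shares rest on between 5229 and 7727 counts per sample and do not depend on normalization between samples. The share of NMDA-type genes went from 35.6% ± 1.26 to 15.0% ± 5.78 (SD, n = 3), that of AMPA-type genes from 21.7% ± 1.80 to 8.36% ± 3.01, and that of *mGluR* from 11.9% ± 1.04 to 4.17% ± 2.27. Shares of one total fall when another member rises, so they describe the makeup and are no separate test.

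**Figure D3:**
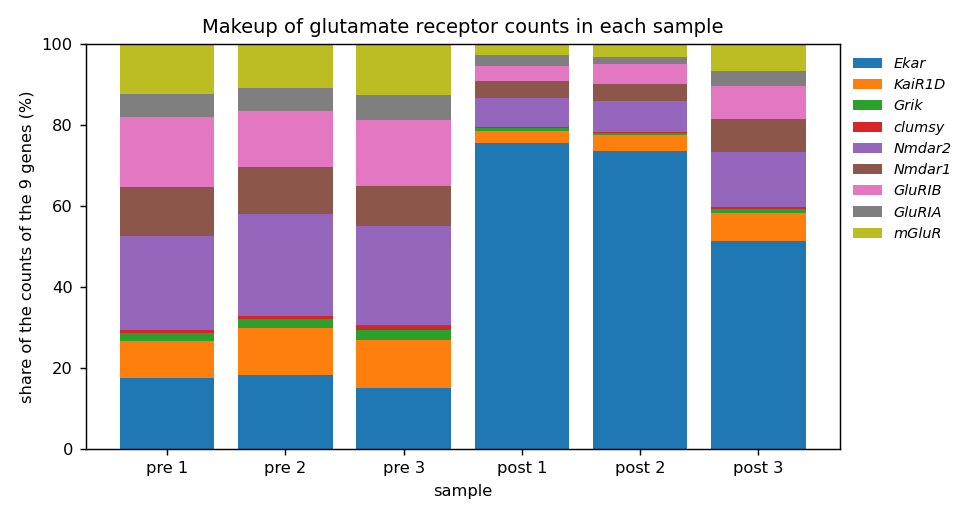
Share of the counts on the 9 receptor genes that each gene took, in percent, for the 3 pre-isolation and 3 post-isolation samples. *Ekar* took between 15.1% and 18.2% before isolation and between 51.4% and 75.5% after it, with post-isolation replicate 3 the lowest of the post-isolation samples.

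All 9 genes had post-isolation replicate 3 as the post-isolation sample nearest to the pre-isolation mean. The margin was small for *GluRIA* (19.3 CPM against 18.1 in replicate 1) and *Grik* (4.93 against 4.32 in replicate 2). The share of all tested genes with this order was not computed, so the count cannot be read as a trait of the receptors. Post-isolation replicate 3 was also the nearest to the pre-isolation samples in the sum of photoreceptor markers. The summed CPM of 12 photoreceptor markers, among them *ninaE* for rhodopsin Rh1, *trp* for a channel of the light response and *Arr2* for an arrestin, was between 53444 and 55468 before isolation. It was 179260, 156870 and 127800 in post-isolation replicates 1 to 3, lowest in replicate 3. All 12 were higher after isolation by the test against no change, and 9 were past 2-fold. Among all tested genes these shares were 24.4% and 7.29%. Relative to the pre-isolation mean, *Ekar* stood at 6.70, 6.50 and 3.75 in post-isolation replicates 1 to 3 and the photoreceptor sum at 3.28, 2.87 and 2.34. *ninaE* is the largest part of that sum, with mean CPM of 28821 before and 52354 after isolation, and had the smallest log2 fold change of the 12. The sum therefore does not stand for the rise of each marker. The log2 fold change of *Ekar*, 2.50, lay within the range of these 12 markers, 0.86 to 3.33, with *ninaE* at 0.86 and *trp* at 2.84.

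The 8 genes other than *Ekar* moved beside markers of transmitter classes, glia and fat body. The transmitter class markers *ChAT* (acetylcholine), *Gad1* and *VGAT* (GABA) and *VGlut* (glutamate) summed to between 988 and 1054 CPM before isolation and to 438, 410 and 698 in post-isolation replicates 1 to 3. All 4 were lower by the test against no change, with log2 fold changes from -1.44 to -0.74. By that test 26.1% of all tested genes were lower and 24.4% higher. The summed CPM of the 8 receptor genes other than *Ekar* was 368 ± 16.7 before and 201 ± 56.4 after isolation (SD, n = 3), and relative to the pre-isolation mean it stood at 0.44, 0.47 and 0.72 in post-isolation replicates 1 to 3. The transmitter markers stood at 0.43, 0.40 and 0.69 in the same samples. Of 8 glial markers, 7 were lower, and their sum went from between 2204 and 2347 CPM to between 1023 and 1400. Relative to the pre-isolation mean the glial sum stood at 0.48, 0.45 and 0.62 in post-isolation replicates 1 to 3. Of the 5 head fat body markers 4 were tested and 3 were lower, with sums of 8530 to 9938 before and 2760 to 4405 after isolation. No marker of these lists was at 0 in every sample. The part of RNA from other head cells in the remaining levels of the 8 genes was not tested. Muscle markers moved in both directions, with summed CPM of 493 to 579 before and 367 to 666 after isolation. Of the 3 that were tested, *bt* was higher at a log2 fold change of 0.51, *up* was lower at -1.65 and *Mhc* did not pass at 0.09. Markers of all neurons were mixed, with 4 higher and 1 lower of the 6 tested by the test against no change and a median log2 fold change of 0.63. The 4 with the highest CPM were *nSyb* at 0.30, *brp* at 0.62, *Syt1* at 1.16 and *CadN* at 1.93. The lower one, *fne*, named after its values were seen, went from 522 ± 16.4 to 216 ± 78.1 CPM (SD, n = 3), or -1.27 on the log2 scale (FDR = 5.23e-05 against no change, edgeR). Of 5 tested auditory neuron markers 3 were higher by the test against no change, *rempA* at 0.46, *nompA* at 0.89 and *btv* at 0.94. The other tested ones did not pass, among them *nompC* at -0.055. The summed CPM of the list was 33.6 to 45.5 before and 59.5 to 67.9 after isolation. The part of antennal nuclei in the level of *Ekar* was not tested.

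**Figure D4:**
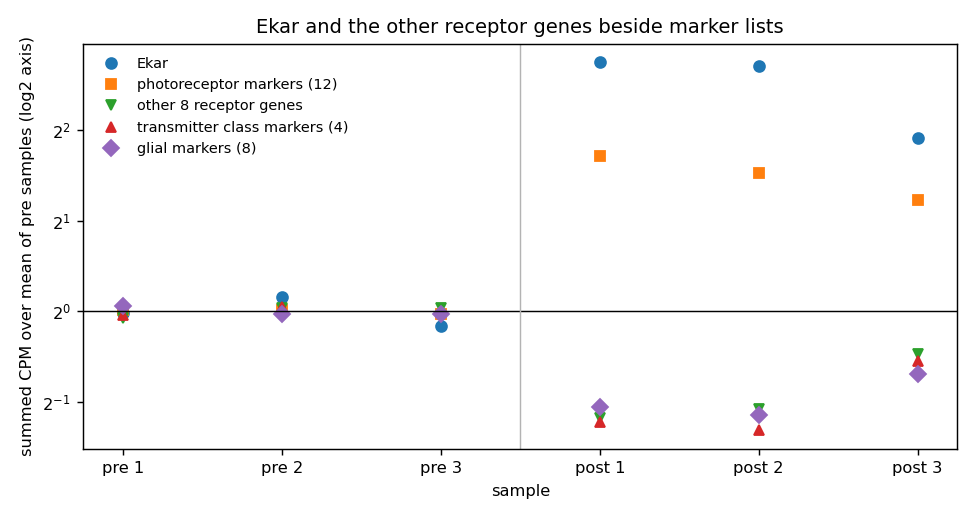
Summed CPM of *Ekar*, the other 8 receptor genes and 3 marker lists in each sample, divided by the mean of the 3 pre-isolation samples and drawn on a log2 axis. In the post-isolation samples *Ekar* stands at 3.75 to 6.70 and the photoreceptor markers at 2.34 to 3.28. *ninaE*, the photoreceptor marker with the smallest log2 fold change, is the largest part of their sum. The other receptor genes lie at 0.44 to 0.72. Close to them are both the transmitter class markers at 0.40 to 0.69 and the glial markers at 0.45 to 0.62.

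By the shape of its 6 values, *Ekar* was nearest to *FER*, *stops* and *oc* among 7977 genes with a mean CPM of at least 5. The measure was the root mean square distance between log2(CPM + 0.5) profiles, each centred on its own mean, and it came to 0.09, 0.10 and 0.10. *FER* encodes a nonreceptor tyrosine kinase, *stops* a protein needed for the normal light response of photoreceptors, and *oc* a homeodomain transcription factor of the eye and head. Their log2 fold changes were 2.42, 2.62 and 2.68. With 2 groups of 3 samples, such nearness mostly reflects a like difference between the groups.

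Other genes of glutamate handling moved in both directions. Of 7 genes for release, uptake and metabolism, 3 were higher and 4 lower by the test against no change. Among the lower ones, *VGlut* is also a transmitter class marker above, and *Eaat1* and *Gs2* are also glial markers. Their values are therefore no separate observation. The shares among all tested genes were 24.4% higher and 26.1% lower. *Eaat2*, which encodes an excitatory amino acid transporter, rose from 342 ± 10.3 to 2215 ± 251 CPM (SD, n = 3), or 2.69 on the log2 scale (SE 0.13, FDR = 1.03e-07 against a 2-fold change, edgeR). Its paralog *Eaat1*, the glutamate transporter of glia, fell from 274 ± 12.3 to 159 ± 31.8 CPM, a log2 fold change of -0.79 (FDR = 0.000259 against no change, edgeR). *gb*, whose product genderblind exchanges cystine for glutamate, was post-enriched at 2.37 (SE 0.20, FDR = 1.78e-05 against a 2-fold change, edgeR), from 19.8 ± 2.25 to 102 ± 26.5 CPM. The glutamine synthetase genes *Gs1* and *Gs2* were lower, at -1.27 and -1.13, of which *Gs1* was past 2-fold (FDR = 0.0416, edgeR). *Gdh*, glutamate dehydrogenase, was higher at 0.90, and the vesicular glutamate transporter gene *VGlut* lower at -0.74.

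Of 7 genes for receptor partners, scaffolds and a kinase, 3 were higher and 1 lower by the test against no change. Among all tested genes 50.5% were called in either direction by this test, 24.4% higher and 26.1% lower. *dlg1*, a synaptic scaffold of the PSD-95 type, was post-enriched at 1.60 (SE 0.16, FDR = 0.00299 against a 2-fold change, edgeR), from 513 ± 29.7 to 1548 ± 369 CPM (SD, n = 3). The scaffold gene *homer* was higher at 0.88 and *CaMKII*, a calcium-dependent kinase of synapses, at 0.73. *Neto*, an auxiliary subunit of glutamate receptors at the neuromuscular junction, was lower at -0.70 (FDR = 0.0197 against no change, edgeR). *Prosap*, *Grip* and *Sol1* did not pass, at 0.26, 0.40 and -0.25. The glutamate-gated chloride channel gene *GluClalpha*, which mediates inhibition by glutamate, was lower at -1.04 (SE 0.16, FDR = 8.24e-05 against no change, edgeR).

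Subunits of the muscle receptor were near the limit of detection. *GluRIIA*, *GluRIIC* and *GluRIIE* were tested and did not pass, with summed CPM over all 5 neuromuscular genes of 9.27 to 11.5 before and 11.3 to 12.4 after isolation. Chemosensory neurons use ionotropic receptors that descend from glutamate receptors, and their co-receptor genes were low in both groups. Of 4 such genes 3 were tested, of which 2 were higher by the test against no change and 1 was past 2-fold. Of all tested genes, 24.4% and 7.29% were called higher by these tests. *Ir76b* rose from 1.28 ± 0.22 to 5.59 ± 0.77 CPM (SD, n = 3), or 2.11 on the log2 scale (SE 0.45, FDR = 0.0336 against a 2-fold change, edgeR). *Ir25a* went from 1.93 ± 0.87 to 6.84 ± 4.10 CPM, a log2 fold change of 1.84 that passed only the test against no change (FDR = 0.00995, edgeR). *Ir93a* did not pass, at 0.20 (FDR = 0.815 against no change, edgeR), and *Ir8a* had too few counts to be tested.

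**Figure D5:**
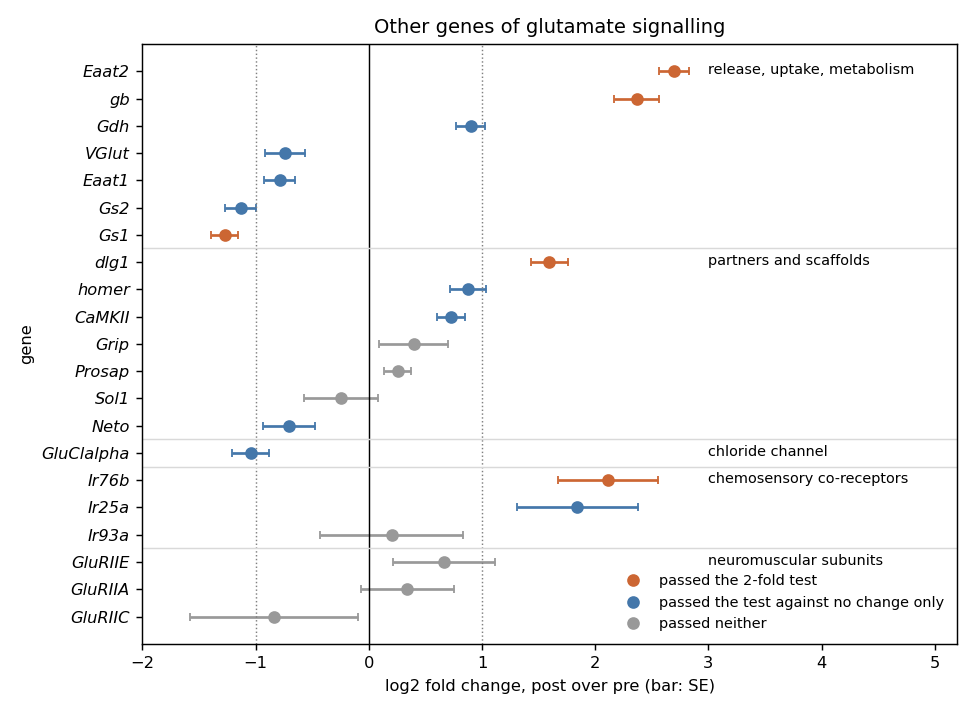
Log2 fold change, post over pre, with its SE, of the tested genes in 5 lists of glutamate signalling, with dotted lines at 2-fold. *Eaat2*, *gb*, *dlg1* and *Ir76b* lie past the upper line by the 2-fold test and *Gs1* past the lower one.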

How the data were processed

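RNA-seq counts of 6 samples were compared, 3 from each side of the isolation. Single-end reads were trimmed by the authors with Trimmomatic and mapped to BDGP6 with TopHat and Bowtie 2, and strand-specific HTSeq counts per gene were deposited without normalization. Rows of the counter that name no gene held between 93.4% and 95.6% of alignments, mostly reads mapped to more than 1 place, and were left out. Of reads mapped to 1 place, 44.8% to 45.5% fell in no counted feature in the pre-isolation samples and 48.8% to 52.4% in the post-isolation samples. The effect of this difference on the gene counts was not tested. Gene counts ranged from 9999540 to 14522962 per sample. The authors' CPM values, relative to the summed counts of their 5262 filtered genes, were read but not tested. No per-sample column was left unused.

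Genes had to exceed a CPM of 1 in 3 or more samples. Counts were then scaled by TMM and fitted with edgeR 4.0.16 (glmQLFit, current fit, in R 4.3.3). glmTreat against a fold change of 2 follows the methods of the study, and glmQLFTest gave the test against no change. Standard errors of log2 fold changes come from the F statistic. Procedures were tested on simulated data. Symbols, positions and exon lengths came from Ensembl release 115 of BDGP6, which held 98.3% of the counted genes. The markers *para*, *VAChT* and *wupA* could not be matched by identifier. Tables and figures used Python 3.11.15, scipy 1.17.1 and matplotlib 3.10.9.

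The labels mark equal replicate numbers as paired biological replicates. Deviations of the numbered pairs from their group means had correlations of 0.01, 0.05 and -0.01 across genes. The reported fit has no replicate block, as the methods name none. Alternatives were the replicate block, RLE factors, library size alone, no filter, the authors' filtered genes, a minimum of 10 counts in each sample, DESeq2 1.42.0, the legacy quasi-likelihood fit (added after seeing the data) and leaving out each sample. The genes named are the 9 members, the glutamate pathway lists, at most the 4 genes of highest CPM of each marker list, and the 3 genes nearest in pattern to *Ekar*. The marker *fne* was named outside this rule, after its values were seen. The members and lists were chosen with earlier results of these data known. The p-values measure the spread between these samples only.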

Additional observations from a re-analysis of the deposited data

How the results depend on the processing

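All 9 genes kept the direction of their log2 fold change in each of the 14 alternative fits that tested them. *clumsy* had no value with at least 10 counts in every sample, and *clumsy* and *Grik* had none on the authors' filtered genes. The number of genes lower by the 2-fold test was 0 as reported and 1 with library size alone (*GluRIB*), and with samples left out it ran from 0 to 1 (*mGluR*, without post-isolation replicate 3). The number lower by the test against no change was 7, and 8 with library size alone (where 4326 of 10378 genes were lower, against 2707 as reported), 6 on the authors' filtered genes, and from 5 to 7 with samples left out, when *GluRIA* and *Nmdar1* lost their calls. With the replicate block the calls were the same for all 9 genes under both tests, with *Ekar* at 2.46 (FDR = 1.02e-07, edgeR's glmTreat). Paired within the replicate block, the ratio of *Nmdar2* to *Nmdar1* differed by -0.35 (exact sign-flip test, p = 0.25, the smallest that 3 pairs allow) and that of *GluRIA* to *GluRIB* by 0.38 (p = 0.75). With coding length in place of exon length, *Ekar* ranked 2 and no longer 1 of 9 in the pre-isolation samples. Over all genes, DESeq2 called 278 genes lower past 2-fold against 508, and library size alone 1253 lower and 451 higher against 757. Counts of *clumsy*, between 9 and 59 per sample, limit what can be said of it.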
